A study of Mus musculus with 84 samples.

Results

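This comparison followed control reprogramming of mouse embryonic fibroblasts (MEFs) from day 6 to day 8, that is, without any added SMAD protein. Its members were the libraries labelled as BFP on those days, called Cont here: 3 biological replicates on each day, each sequenced as 3 technical wells whose reads were summed, which makes 6 of the 30 libraries and 18 of the 84 wells of the series. Every Cont cell carried a doxycycline-inducible cassette for c-Myc, Klf4, Oct4 and Sox2 followed by the fluorescent protein mOrange (MKOS-ires-mOrange), the rtTA activator driven by the CAG promoter, both at Sp3, and a GFP reporter of Nanog that is a heterozygous knockout of Nanog. The cells were infected with a retroviral control vector for blue fluorescent protein (BFP) and grown in ES medium with LIF, 300 ng/ml doxycycline and vitamin C. According to the methods, the transgenic MEFs came from chimeric embryos made from a single ESC line on a 129 background, male and female embryos were mixed, and the cells grew among an excess of wild-type MEFs. Only mOrange+ cells were sorted for sequencing on each day. The +Sm3CA series differed from Cont in that the vector carried constitutively active Smad3. MEF libraries came from wild-type 129 MEFs and ESC libraries from the TNG MKOS ESC line. Biological replicates with the same number were paired over the days of a series, but nothing in the labels says whether they came from separate embryos. The p-values thus measure the spread between libraries of this series, estimated jointly over the 24 time series libraries.

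In this system MEFs lose their mesenchymal character within days of cassette induction, pass through an epithelial-like intermediate, and a minority then switches on the endogenous pluripotency network. Type I interferons are antiviral cytokines that act through the receptor subunits IFNAR1 and IFNAR2, the kinases JAK1 and TYK2, and a complex that includes STAT2 and IRF9 and binds a short element in front of the interferon-stimulated genes. Chemokines of the CXC and CC families, and acute-phase proteins such as serum amyloid A, are typical products of fibroblasts and epithelia under inflammatory stimulation.

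The 6 libraries held 1304562 to 2296059 reads, and 3 reads corresponded to 1.19 to 2.27 CPM (reads of a gene scaled to a library of 1e+06 reads). The table holds reads counted per gene from 5′-end (STRT) libraries, not molecules. The 10 defining fibroblast markers summed to 924 to 1037 CPM on day 6 and 1066 to 1506 CPM on day 8, against 4809 to 6634 CPM in MEFs and 75.1 to 121 CPM in ESCs. The cells sorted on days 6 and 8 thus held fibroblast markers at a level between those of MEFs and ESCs. Of 10237 genes tested with edgeR's quasi-likelihood test and Benjamini-Hochberg adjustment, 143 (1.4%) rose and 30 (0.293%) fell from day 6 to day 8 at an adjusted p below 0.05, and 1333 had an unadjusted p below 0.05. The 173 calls became 61, 98 and 105 without day 6 replicate 1, 2 or 3, and 155, 118 and 86 without day 8 replicate 1, 2 or 3. The median log2 fold change of all tested genes was 0.02. In 1145 tested genes (11.2%) every day 8 library lay above every day 6 library, and in 976 (9.53%) every day 8 library lay below. Both shares are the background for the counts of non-overlapping genes given for the lists between day 6 and day 8. An exact permutation test of 3 against 3 libraries cannot give a two-sided p below 0.1. The wells of days 6 and 8 lay in the same plate rows, and the labels name no batch.

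**Figure D1:**
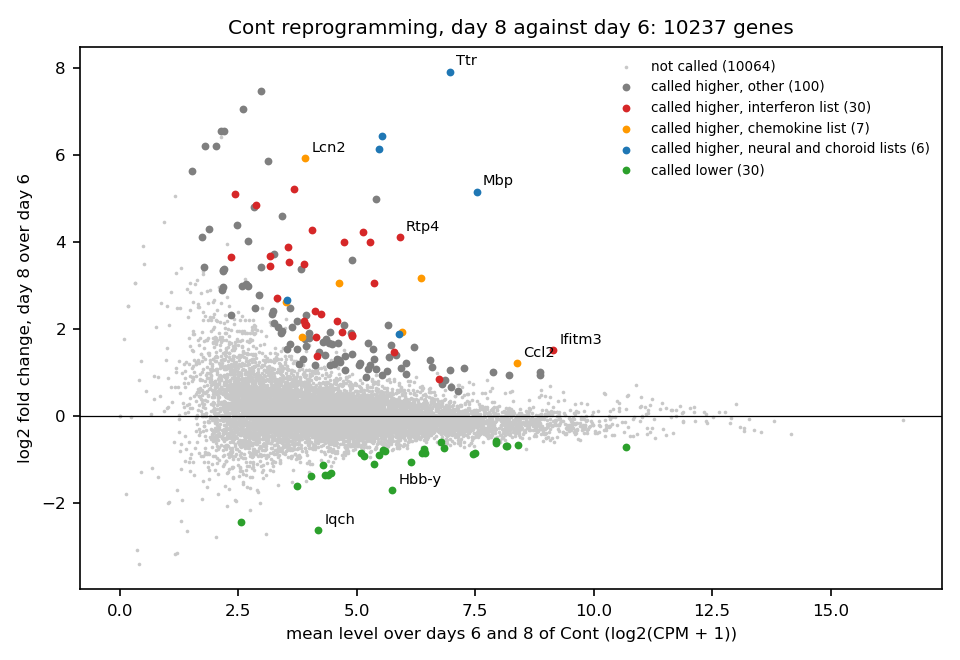
Change from day 6 to day 8 of Cont for each of the 10237 tested genes. The x axis is log2(mean CPM + 1) over the 6 libraries, the y axis is the log2 fold change, and colours mark genes past the threshold and members of gene lists. Points past the threshold lie mostly above 0 (143 genes) and less often below it (30 genes).

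Interferon-stimulated genes had the highest share of members called of any list. Of the 47 tested members of that list, 30 rose and 0 fell, the median log2 fold change was 2.42 and all 47 values were positive. In 42 of the 47 the day 8 libraries did not overlap those of day 6. The summed level of the 50 list genes in the table was 602, 669 and 652 CPM on day 6 and 1563, 2161 and 2900 CPM on day 8 in replicates 1, 2 and 3. All 3 day 8 libraries were above all 3 of day 6, with replicate 1 lowest and replicate 3 highest. Among the 30 members that rose, the highest day 8 library was replicate 3 in 26 and replicate 2 in 4. In bulk libraries, more cells with the program and more RNA per cell cannot be told apart. Members of this list beyond Rtp4, Usp18, Oasl2, Ifit1, Ifit3 and Ifi44 were named after their values were seen. Related genes (Oas1a and Oas1g, the Gbp genes, Ifi203 and Ifi204, Irgm1 and Irgm2) may share reads where their sequences are alike, which was not tested.

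**Figure D2:**
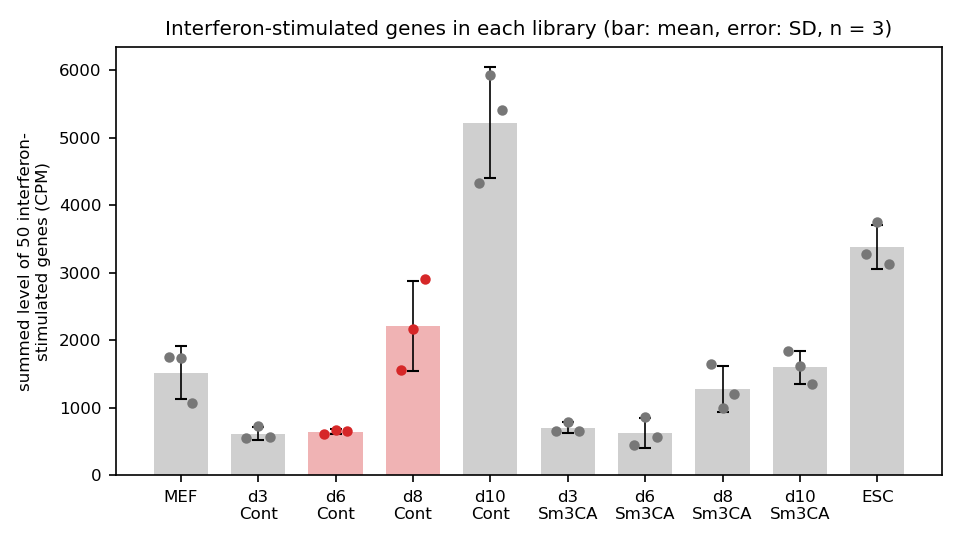
Summed CPM of the 50 interferon-stimulated genes in each library of the 10 groups, with points for libraries, bars for the group mean and error bars for the SD (n = 3). Cont rises from 602 to 669 CPM on day 6 through 1563 to 2900 CPM on day 8 to 4331 to 5936 CPM on day 10.

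Rtp4, a chaperone for receptors that is induced by interferon, lies on chromosome 16 from 23520291 to 23614222 (build GRCm38, plus strand). It measured 4.66, 10.9 and 4.17 CPM on day 6 and 79.6, 117 and 138 CPM on day 8. All day 8 libraries were far above all day 6 libraries, and the log2 fold change was 4.12 ± 0.41 (SE, n = 3 per day, adjusted p = 2.59e-08, edgeR's quasi-likelihood test). Usp18, the protease that removes ISG15 from proteins and restrains receptor signalling, measured 2.80, 6.41 and 4.77 CPM on day 6 and 42.4, 56.6 and 116 CPM on day 8. Its groups did not overlap and its change was 4.00 ± 0.44 (adjusted p = 2.88e-07). Ifit1, an RNA-binding antiviral protein, was at 0.932, 10.3 and 0 CPM on day 6 and 43.2, 69.3 and 80.7 CPM on day 8, with a change of 4.22 ± 0.53 (adjusted p = 1.88e-06). Ifit3, its partner, was at 0.932, 2.56 and 1.19 CPM and then 22, 24.8 and 42.5 CPM (4.28 ± 0.64, adjusted p = 4.93e-05). Ifi44 was at 2.80, 1.28 and 4.77 CPM and then 29.6, 48.1 and 66.8 CPM (4.01 ± 0.51, adjusted p = 2.49e-06). Day 6 replicate 2 was the highest of its day for Rtp4, Usp18, Ifit1 and Ifit3, but still below every day 8 library. I830012O16Rik, whose symbol the annotation used here did not place, measured 0, 8.34 and 0 CPM and then 43.2, 87.0 and 110 CPM (5.00 ± 0.62, adjusted p = 1.46e-06).

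The promoter windows of a few of these genes are shown because interferon-stimulated promoters are known for a short repeated element. No rule fixed beforehand chose the genes shown. Rtp4 and Usp18 had no window matched by symbol, and list members Oasl2, Lgals3bp and Samd9l, not shown, held no match. The lines hold the 160 bases before the start of each gene on its own strand, from RefSeq (build GRCm38.p6), with each match to GAAA, any 2 bases and GAAA again, or to its reverse complement (TTTC, any 2 bases and TTTC), in capitals. Matches may overlap each other. The windows were chr19:34640729-34640888 (plus) for Ifit1, chr19:34583369-34583528 (plus) for Ifit3, chr3:142620503-142620662 (plus) for Gbp2, chr5:120887614-120887773 (minus) for Oas1g, chr4:156200819-156200978 (minus) for Isg15 and chr3:151749911-151750070 (minus) for Ifi44, the last shown as an example without a match.
Ifit1: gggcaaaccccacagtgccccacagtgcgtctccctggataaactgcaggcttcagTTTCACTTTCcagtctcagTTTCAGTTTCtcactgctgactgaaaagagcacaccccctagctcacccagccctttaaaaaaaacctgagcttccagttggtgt
Ifit3: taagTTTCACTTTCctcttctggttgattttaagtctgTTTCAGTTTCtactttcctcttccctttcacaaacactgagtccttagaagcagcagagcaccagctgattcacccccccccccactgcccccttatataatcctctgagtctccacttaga
Gbp2: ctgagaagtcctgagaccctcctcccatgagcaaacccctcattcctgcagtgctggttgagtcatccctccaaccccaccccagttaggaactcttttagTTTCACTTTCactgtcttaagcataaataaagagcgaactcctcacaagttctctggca
Oas1g: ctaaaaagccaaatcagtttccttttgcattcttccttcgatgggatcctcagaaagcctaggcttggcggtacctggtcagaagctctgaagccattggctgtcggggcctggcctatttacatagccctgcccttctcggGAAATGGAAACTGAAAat
Isg15: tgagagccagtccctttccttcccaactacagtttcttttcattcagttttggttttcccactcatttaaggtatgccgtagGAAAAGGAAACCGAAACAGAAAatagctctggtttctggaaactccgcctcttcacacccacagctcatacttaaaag
Ifi44: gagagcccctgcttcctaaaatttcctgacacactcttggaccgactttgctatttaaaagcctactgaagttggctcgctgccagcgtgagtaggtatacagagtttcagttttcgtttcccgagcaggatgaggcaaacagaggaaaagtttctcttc

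Over windows of 250 bases before to 50 bases after the start, 1079 of 27025 genes (3.99%) held at least 1 match. For the genes tested here it was 284 of 7601 (3.74%). Of the genes that rose, 105 of 143 were matched by symbol, and 27 (25.7%) held a match. For the genes that fell, 22 of 30 were matched and 1 (4.55%) held one. Among the tested interferon-stimulated genes the share was 20 of 35 (57.1%), and among those of them that rose it was 17 of 24 (70.8%). Outside the list, 10 of 81 genes that rose (12.3%) held a match. The list is not complete, so these 81 are not free of interferon-induced genes, with Ifi47 (no match) as an example. A match is a description of the letters, and the lack of one in Ifi44 says nothing about what binds there.

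Other members of the list covered the effector, sensor and transcription factor arms of the response. Ifitm3, a membrane protein that blocks viral entry, was already abundant at 274, 268 and 337 CPM on day 6 and measured 583, 804 and 1124 CPM on day 8. Its groups did not overlap and its change was 1.51 ± 0.22 (adjusted p = 2.8e-05). Gbp2, a guanylate-binding protein, measured 3.73, 11.5 and 10.1 CPM and then 28.8, 38.2 and 44.9 CPM (2.19 ± 0.35, adjusted p = 0.00012). Oas1g, an oligoadenylate synthetase that detects double-stranded RNA, measured 2.80, 1.92 and 1.79 CPM and then 20.5, 21.9 and 33.8 CPM (3.50 ± 0.56, adjusted p = 0.000134). All 3 had non-overlapping groups. Oasl2 was at 3 reads in all on day 6 and 133 on day 8, a pooled ratio of 45.5 (95% counting interval 15.2 to 223, adjusted p = 1.46e-06). Isg15, the ubiquitin-like modifier, was at 2 and 77 reads, a ratio of 39.5 (10.6 to 332, adjusted p = 0.000846), and its day 8 libraries measured 3.03, 10.6 and 23.1 CPM. Irf7, the transcription factor that amplifies interferon production, was at 1 and 50 reads, a ratio of 51.3 (8.79 to 2065, adjusted p = 0.00489). For these sparse genes the counting interval covers counting error only.

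Sensors and signal transducers were also among the genes that rose. Ddx58 (RIG-I) rose by 2.19 ± 0.43 on the log2 scale (adjusted p = 0.00207) and Ifih1 (MDA5) by 2.71 ± 0.54 (adjusted p = 0.00245), both cytosolic RNA sensors. Zbp1, a sensor of Z-form nucleic acids, rose from 2.56 to 8.35 CPM on day 6 to 25.8 to 34.6 CPM on day 8 (2.35 ± 0.39, adjusted p = 0.000211). Stat2, a subunit of the transcription factor that type I interferon activates, measured 5.13, 6.41 and 4.17 CPM and then 24.3, 16.3 and 27.4 CPM, without overlap. It rose by 2.11 ± 0.46 (adjusted p = 0.00636), a call lost without day 6 replicate 1 (0.0570) or day 6 replicate 3 (0.0527). Irf1, Irf9, Bst2, Oas2 and Igtp were among the 17 tested members that did not pass the threshold. Dhx58, Oas3 and Mx1 were too sparse to be tested. Without day 8 replicate 3 the count of members called fell from 30 to 20, with Stat2 (adjusted p = 0.06) and Ifih1 (0.0522) among those lost. Without day 6 replicate 1 the count was 21, with Ddx58 (0.0559) and Stat2 (0.057) lost. Gbp7 (1.38 ± 0.38, adjusted p = 0.0465) had an adjusted p of 0.056 with the replicate number as a block.

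Genes upstream of this response were looked at after these values were seen, and are given as levels and single-gene tests only. Of 15 receptor and signalling genes, 13 could be tested and 0 were called. Ifnar1 measured 27.5, 20.5 and 19.08 CPM on day 6 and 19.7, 14.9 and 18.7 CPM on day 8, with overlapping groups (-0.34 ± 0.30, adjusted p = 0.686). Ifnar2 measured 22.8, 34.6 and 16.1 CPM and then 25.8, 21.2 and 18.3 CPM (-0.19 ± 0.29, adjusted p = 0.845). Jak1 (-0.13 ± 0.17), Tyk2 (0.16 ± 0.47) and Irf3 (0.15 ± 0.38) also had adjusted p above 0.8. The only ligand gene analysed here, Ifna11, had 0 reads on day 6 and 1 read on day 8.

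The levels of these genes were higher again on day 10. All 30 members that rose had a higher mean then than on day 8, and in 23 of them every day 10 library was above every day 8 library. Among all 143 genes that rose these counts were 107 and 54. The 143 include these 30 and were picked by the same rise to day 8, so they are no background. The shares over all tested genes were not worked out. Rtp4 reached 231 to 334 CPM on day 10, and Ifitm3 reached 1592 to 1986 CPM. Before day 6 the levels were lower in most members. The mean was higher on day 6 than on day 3 in 24 of the 30, and in 85 of all 143 genes that rose. The summed list overlapped between these days, at 550, 722 and 571 CPM on day 3 against 602 to 669 CPM on day 6. MEFs gave a summed level of 1067 to 1753 CPM, which overlapped the 1563 to 2900 CPM of day 8. Of the 30, which were picked by their rise to day 8, 2 had a higher mean in MEFs than on day 8. Among all 143 genes that rose this count was 39. In ESCs the sum of 3128 to 3755 CPM was mostly Ifitm1, at a mean of 2684 CPM.

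Some chemokine and acute-phase genes rose as well. Of 21 tested members of that list, 8 rose, 0 fell and 13 did not pass, with a median log2 fold change of 1.51 (0.82 to 2.39 over the alternatives) beside 0.02 for all genes. Cxcl5, a neutrophil chemokine, measured 1.86, 5.77 and 8.35 CPM on day 6 and 24.3, 46.0 and 55.6 CPM on day 8. The groups did not overlap, and the change was 3.05 ± 0.37 (adjusted p = 1.46e-06). Saa3, serum amyloid A3, measured 0.932, 37.8 and 13.1 CPM and then 107, 129 and 200 CPM (3.17 ± 0.47, adjusted p = 4.93e-05), with wide spread on day 6. Cxcl1, another neutrophil chemokine, measured 13.1, 44.9 and 19.08 CPM and then 75.8, 91.3 and 121 CPM (1.95 ± 0.30, adjusted p = 8e-05). Ccl2, which attracts monocytes, was the most abundant of the 8, at 148, 281 and 171 CPM and then 492, 422 and 483 CPM (1.22 ± 0.23, adjusted p = 0.00151). Cxcl10, itself interferon-induced and counted in both lists, measured 5.59, 14.7 and 5.96 CPM and then 75, 49.5 and 90.2 CPM (3.07 ± 0.50, adjusted p = 0.000173). Lcn2, the iron-sequestering lipocalin, went from 2 reads in all to 137 reads, a pooled ratio of 70.2 (counting interval 19.08 to 586, adjusted p = 1.46e-06). Il6 rose by 2.63 ± 0.64 (adjusted p = 0.0192) and Cxcl12 by 1.82 ± 0.42 (adjusted p = 0.0142), but both missed the threshold without day 6 replicate 1 (0.174 and 0.132). Il6 also did without day 6 replicate 2 or day 8 replicate 3 (0.0845 and 0.0795), and Cxcl12 without day 6 replicate 3 or day 8 replicate 1 (0.0823 and 0.0616). Ccl2, Cxcl10, Il6 and Cxcl12 were named after their values were seen. In all 8 genes the mean was higher again on day 10, as it was in 107 of all 143 genes that rose.

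**Figure D3:**
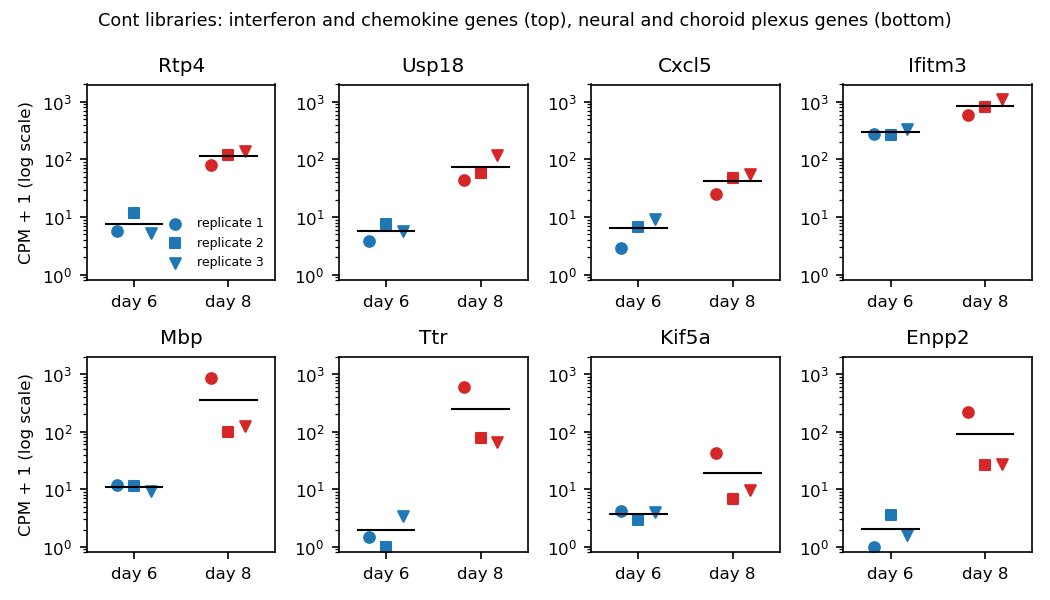
CPM + 1 on a log axis in the 3 day 6 and 3 day 8 Cont libraries for Rtp4, Usp18, Cxcl5 and Ifitm3, which are raised in all 3 day 8 libraries, and for Mbp, Ttr, Kif5a and Enpp2. For the latter, replicate 1 of day 8 lies far above the other two.

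A few fibroblast and smooth muscle genes rose, from levels far below those of MEFs. Of 38 tested matrix genes, 6 rose and 0 fell, with a median of 0.70 (0.34 to 0.97 over the alternatives), and 33 of the 38 values were positive. Bgn, the proteoglycan biglycan, measured 27.5, 41.7 and 41.1 CPM on day 6 and 84.1, 142 and 105 CPM on day 8, without overlap (1.59 ± 0.27, adjusted p = 0.000314), beside a mean of 1836 CPM in MEFs. Col1a2, a collagen I chain, measured 75.5, 116 and 98.4 CPM and then 196, 187 and 241 CPM (1.11 ± 0.22, adjusted p = 0.00219), beside 1426 CPM in MEFs. Col1a1 rose by 1.21 ± 0.29 (adjusted p = 0.0192) and Postn, periostin, by 2.10 ± 0.47 (adjusted p = 0.00856). Col1a1 lost the call without day 6 replicate 1 (0.174), day 6 replicate 2 (0.0776) or day 8 replicate 3 (0.421), and Postn without day 6 replicate 3 (0.0890) or day 8 replicate 2 (0.0983). The median day 8 level of the 6 was 13.4% of that in MEFs. Without day 6 replicate 1 only 2 of the 6 were called, and Col1a2 was at 0.0559. Without day 6 replicate 3 or day 8 replicate 3 the count was 3, and without day 6 replicate 2 or day 8 replicate 2 it was 4. Of 14 smooth muscle contractile genes, 4 rose (Acta2, Actg2, Myl9 and Cnn2) and 0 fell, with a median of 0.45. Acta2, smooth muscle actin, measured 150, 234 and 220 CPM and then 249, 548 and 362 CPM, beside a mean of 12496 CPM in MEFs (0.94 ± 0.24, adjusted p = 0.0267). None of the 4 stayed past the threshold without day 6 replicate 1, day 6 replicate 3, day 8 replicate 2 or day 8 replicate 3, and 2 stayed without day 6 replicate 2. Cnn2 was at 0.0536 with the replicate block. No TGF-beta target passed among 23 tested (median 0.31). Vcam1, an adhesion molecule, rose by 2.18 ± 0.40 (adjusted p = 0.00101) and was at 0.0532 without day 8 replicate 3.

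**Figure D4:**
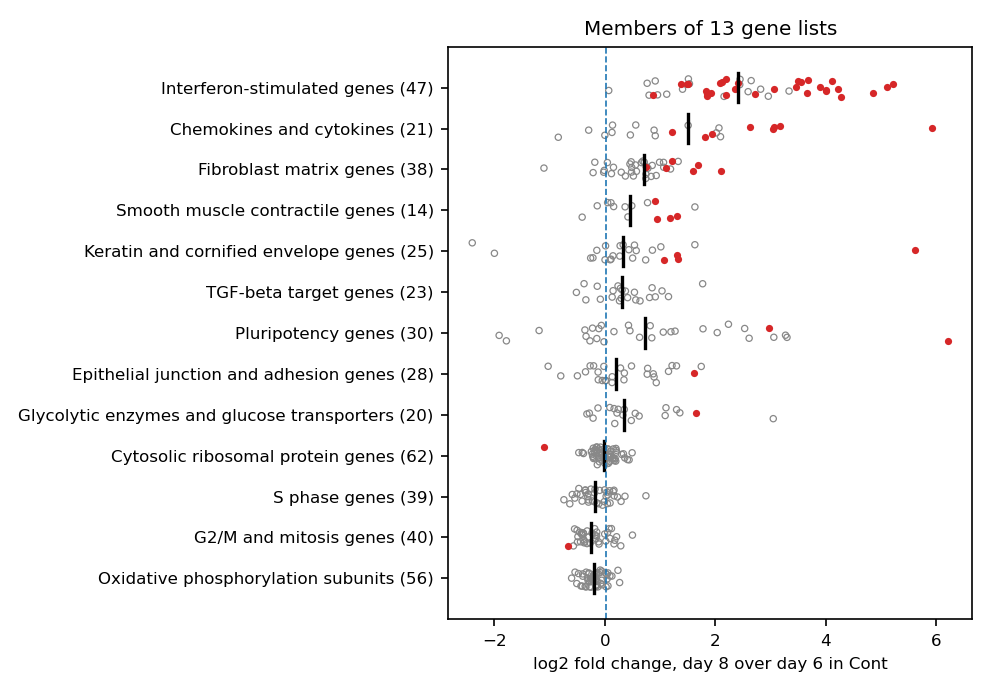
Log2 fold change from day 6 to day 8 of Cont for every tested member of 13 gene lists. Red points passed the threshold, the black bar is the list's median and the dashed line is the median of all tested genes, 0.02. The interferon-stimulated list has 30 of 47 members past the threshold, and the chemokine list 8 of 21.

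Pluripotency genes had few calls. Of 30 tested, 2 rose and 0 fell, with a median of 0.73, or 0.30 with the 4 members at 0 reads on day 6 set to a bound over 3 reads, and 19 values were positive. The median was -0.03 when only the 6 libraries of both days were fitted, 0.47 without day 8 replicate 1 and 0.41 without day 8 replicate 3. The 40 genes of the list summed to 1568 to 1687 CPM on day 6 and to 1373 to 1536 CPM on day 8, lower in every day 8 library. Such a sum follows the abundant members. The members at 0 reads, a count that also depends on depth, went from 15, 15 and 14 on day 6 to 10, 14 and 7 on day 8. Tcl1, an activator of AKT that is high in ESCs, was at 0 reads in all 3 day 6 libraries and at 1.52, 2.12 and 11.1 CPM on day 8, at least 2.89-fold above the floor of 3 reads per library (adjusted p = 0.00323). Replicate 3 carried most of it, and the adjusted p was 0.173 without that library. Zscan10, an ESC zinc finger protein, measured 0.466, 1.28 and 0.596 CPM and then 5.31, 5.66 and 7.95 CPM (2.98 ± 0.73, adjusted p = 0.0203), beside 81.1 CPM in ESCs. Without day 8 replicate 3 it was at 0.129, so that neither gene stayed, and without day 6 replicate 1 or replicate 3 it was at 0.16 or 0.0941. Nanog was at 0, 0.641 and 0 CPM and then 0.758, 0 and 0.795 CPM, which is at or under the level of 3 reads. Of the cassette factors, whose counts can include transcripts of the cassette, Pou5f1 measured 38.2, 50.7 and 38.8 CPM and then 55.3, 43.2 and 60.8 CPM (0.33 ± 0.21, adjusted p = 0.558). Sox2 (0.77 ± 0.38), Myc (0.31 ± 0.33) and Klf4 (0.15 ± 0.32) were not called either. Endogenous Smad3 measured 7.46, 14.7 and 10.1 CPM and then 6.06, 5.66 and 4.77 CPM (-0.97 ± 0.43, adjusted p = 0.321).

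Among genes that set ESCs and MEFs apart, 8 of the 143 genes that rose were higher in ESCs (5.59%) and 33 higher in MEFs (23.1%), where 6.57% and 12.6% of all tested genes were so. These shares also count genes not tested between ESCs and MEFs, which were 75 of the 143 but 1979 of all 10237. A lower ESC-high share among the genes that rose therefore cannot be read from them. Counting only genes tested between ESCs and MEFs, those that rose were 8 ESC-high, 33 MEF-high and 27 in neither class. For all tested genes these counts were 673, 1291 and 6294. Of the 30 genes that fell, 6 were higher in ESCs (20%), 3 were higher in MEFs and 10 were not tested between them. Over all 673 tested ESC-high genes the median was -0.05, and over all 1291 MEF-high genes it was 0.16. Epithelial genes had 1 call among 28, the tight junction protein Cldn4 (1.61 ± 0.40, adjusted p = 0.0239, and 0.0519 to 0.211 without any one library other than day 6 replicate 3). Keratin and cornified envelope genes had 4 among 25, with a median of 0.33. Of these, Aqp3, a glycerol channel of epithelia, measured 22.4, 24.4 and 22.1 CPM and then 59.1, 58.0 and 55.6 CPM (1.32 ± 0.23, adjusted p = 0.000609), a tight rise in every library. It was called without any single library, whereas Sprr2b, Lgals7 and Ly6d each lost the call without day 6 replicate 1, day 6 replicate 2, day 8 replicate 2 or day 8 replicate 3. Ly6d was at 0 reads on day 6, at least 2.22-fold above the floor on day 8, and at 0.0569 with the replicate block. Slc2a1, the glucose transporter GLUT1, was the single call among 20 glycolytic genes, from 12.1, 8.34 and 10.1 CPM to 36.4, 25.5 and 35.8 CPM (1.65 ± 0.38, adjusted p = 0.0142), and was at 0.0533 to 0.0834 without any one day 6 library and at 0.0786 without day 8 replicate 3.

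A set of brain and choroid plexus transcripts was high in day 8 replicate 1. Ttr, transthyretin, a choroid plexus and liver product, measured 0.466, 0 and 2.38 CPM on day 6 and 597, 76.4 and 64.0 CPM on day 8 (7.91 ± 1.25, adjusted p = 0.00012). Mbp, myelin basic protein, measured 10.7, 10.3 and 8.35 CPM and then 852, 98.3 and 123 CPM (5.16 ± 0.75, adjusted p = 3.22e-05). In both genes all day 8 libraries were above all of day 6, with replicate 1 over 3 times each of the other two. Enpp2, autotaxin, had 219, 25.5 and 26.2 CPM on day 8 against 0 to 2.56 CPM on day 6 (6.45 ± 1.04, adjusted p = 0.000146). The 3 wells of that library each gave the excess, with 513 to 670 CPM of the well for Ttr and 789 to 937 for Mbp. Kif5a, a neuronal kinesin, was called by a narrow margin (2.67 ± 0.73, adjusted p = 0.049), was at 0.518 without day 8 replicate 1, kept the call only without day 8 replicate 2, and was at 0.0652 with the replicate block. Cldn11 of myelin and Epas1 also depended on replicate 1 (adjusted p = 0.34 and 0.324 without it) and were also lost without any one day 6 library. Epas1 was at 0 reads on day 6 and at least 3.6-fold above the floor on day 8. Fabp7, a brain fatty acid-binding protein, followed another pattern with 15.9, 16 and 42.3 CPM and then 67.4, 146 and 62.4 CPM (1.88 ± 0.45, adjusted p = 0.0173), and was at 0.167, 0.121 and 0.169 without day 6 replicate 1, day 6 replicate 2 or day 8 replicate 2.

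On day 10 of Cont, Mbp measured 7.41 to 13.1 CPM, Ttr 0 to 2.31 CPM and Enpp2 0 to 0.771 CPM, and on day 8 of +Sm3CA, Mbp measured 4.07 to 17.5 CPM. Mag, Snap25 and S100b, chosen after their values were seen, were at 0 reads in all day 6 libraries, and at 23.5, 18.9 and 14.4 CPM in day 8 replicate 1 against 0.397 to 3.58 CPM in the other two. Of the 40 neural and glial markers in the table, 14 were at 0 on all of day 6, 6 of which (Mag, Olig1, Gfap, Aqp4, S100b and Snap25) had reads in every day 8 library, while Sox10 was at 0 in all 6 libraries. Gfap went the other way from Mag, Snap25 and S100b, with replicate 1 lowest on day 8, at 0.758, 6.37 and 1.59 CPM in replicates 1, 2 and 3. The list summed to 3981 to 4289 CPM on day 6 and 2909 to 4508 CPM on day 8, most of it Stmn2. Without Stmn2 the sums were 377, 333 and 470 CPM on day 6 and 1638, 741 and 635 CPM on day 8. The 12 choroid plexus and secretory markers summed to 39.9 to 45.2 CPM on day 6 and 148 to 903 CPM on day 8. Of the tested genes, 4 of 18 neural and 2 of 5 choroid markers rose. The neural median was 0.49 (0.23 to 1.66 over the alternatives) and 0.33 without day 8 replicate 1, and the choroid median was 2.63 (1.6 to 6.51) and 2.17 without that library. On day 10 of +Sm3CA the same choroid plexus list summed to 59.7, 69.7 and 426 CPM. Whether cells or RNA of another tissue had a part in these values was not tested. Without day 8 replicate 1 there were 155 called genes, 33 interferon-stimulated genes among them.

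Blood and macrophage markers gave no uniform picture. Of 18 tested, 2 rose and 1 fell, with a median of 0.74 (0.13 to 0.85 over the alternatives). Cd52, a leukocyte surface peptide, measured 2.33, 4.49 and 6.56 CPM and then 51.5, 70.7 and 38.2 CPM (3.58 ± 0.70, adjusted p = 0.00214), with all day 8 libraries above day 6. Cd68 rose by 1.23 ± 0.34 (adjusted p = 0.0496) with overlapping libraries, and was at 0.306, 0.158, 0.127 and 0.262 without day 6 replicate 1, day 6 replicate 3, day 8 replicate 1 or day 8 replicate 2. Of the 23 list genes in the table, only the lineage factors Gata1 and Spi1 were at 0 reads in all 6 libraries. Csf1r, a macrophage receptor, was at 1.79 to 3.97 CPM in them. The list summed to 1133 to 1570 CPM on day 6 and 1222 to 1871 CPM on day 8, mostly Lyz2, and its part in the interferon result was not tested.

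The 30 genes that fell had small changes, with a median log2 fold change of -0.85 beside 2.05 for the genes that rose (1.93 with the 7 genes at 0 reads on day 6 set to their bound). In all 30 the libraries did not overlap, as in 136 of the 143. The 30 calls became 5, 7 and 19 without day 6 replicate 1, 2 or 3, and 16 and 8 without day 8 replicate 2 or 3. Iqch, an IQ motif protein on chromosome 9 from 63421455 to 63602493 (minus strand), measured 30.8, 19.9 and 37.6 CPM on day 6 and 2.27, 11.3 and 1.99 CPM on day 8 (-2.61 ± 0.49, adjusted p = 0.00131). Hbb-y, the embryonic beta-like globin, measured 70.9, 109 and 64.4 CPM and then 20.5, 13.4 and 37.8 CPM (-1.69 ± 0.34, adjusted p = 0.00276). Both kept the call without any single library. Tdh, threonine dehydrogenase, an enzyme that mouse ESCs depend on, measured 233, 219 and 222 CPM and then 149, 129 and 97.8 CPM (-0.86 ± 0.20, adjusted p = 0.0173), beside 615 CPM in ESCs, and was at 0.175 without day 8 replicate 3 and 0.0913 without day 6 replicate 1. Spink2, a protease inhibitor named after its values were seen, was far more abundant, at 1955, 2193 and 1965 CPM and then 1441, 1428 and 907 CPM (-0.70 ± 0.17, adjusted p = 0.0209, and 0.069, 0.116 and 0.248 without day 6 replicate 1, day 6 replicate 2 or day 8 replicate 3).

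Proliferation genes had almost no calls. Of 40 G2/M and mitosis genes, 1 fell and 0 rose, with a median of -0.25 and 30 negative values. The one was Birc5, survivin, at 317, 383 and 340 CPM and then 242, 238 and 175 CPM (-0.67 ± 0.18, adjusted p = 0.0435). It lost the call without any one of the 6 libraries (0.052 to 0.313) and was at 0.0567 with the replicate block. None of 39 S phase genes was called (median -0.18, 26 negative), and none of 56 oxidative phosphorylation subunits (median -0.19, 46 negative). Of 62 ribosomal protein genes 1 fell, Rpl34 (-1.09 ± 0.26, adjusted p = 0.0162, and 0.0728, 0.0556 and 0.225 without day 6 replicate 1, day 6 replicate 2 or day 8 replicate 3), and the median was -0.01. Mcoln2, Adtrp, Cpm, Snord16a, Fam102b, Fam49a and Pecr also belonged to the 12 largest falls of the better-measured genes, with log2 changes from -1.37 (Snord16a) to -0.89 (Pecr). Of these 7, 6 lost the call without day 6 replicate 2 (0.0767 to 0.183) and Snord16a without day 6 replicate 1 (0.106), and Pecr was at 0.0575 with the replicate block.

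The same interval in the +Sm3CA series gave 305 genes higher (2.98%) and 379 lower (3.7%). These 684 calls became 163 without day 6 +Sm3CA replicate 3, and 407, 266 and 1062 without day 8 +Sm3CA replicate 1, 2 or 3. Of the 143 genes that rose in Cont, 138 had a positive value there and 51 were called, with a median of 1.12 beside 2.05 in Cont. Of the 30 that fell, 26 were negative and 9 called, with a median of -0.35. The 30 interferon genes were all positive in +Sm3CA, 11 of them called, with a median of 1.41 beside 2.89 in Cont. Their mean on day 8 was higher in Cont than in +Sm3CA in all 30, and in 14 every Cont library was above every +Sm3CA library. Among all 143 genes that rose, which include the 30 and were picked the same way, these counts were 128 and 54. They are no background, and the shares over all tested genes were not worked out. The sums for the interferon list were 989 to 1649 CPM on day 8 of +Sm3CA and 1345 to 1835 CPM on day 10. Since members were selected by a rise to day 8 in Cont, their smaller change and lower day 8 level in +Sm3CA are a description. In the test of the difference itself no gene passed (0%), although 936 had an unadjusted p below 0.05, DESeq2's Wald test called 22, and edgeR called 58 without day 8 +Sm3CA replicate 3. The smallest p among the interferon genes was that of Rtp4, which changed by 4.12 ± 0.41 in Cont and 1.24 ± 0.40 in +Sm3CA (unadjusted p of the difference 2.51e-05, adjusted p = 0.0857). Cxcl5 changed by 3.05 ± 0.37 and 2.80 ± 0.34, a difference of 0.25 ± 0.52 (unadjusted p = 0.633). Saa3 changed by 3.17 ± 0.47 and 3.33 ± 0.48. Lcn2 measured 2.89, 2.12 and 0 CPM on day 6 of +Sm3CA and 2.51, 4.88 and 1.64 CPM on day 8 (0.70 ± 0.72), against 19.9 to 34.7 CPM on day 8 of Cont (unadjusted p of the difference 0.000141, adjusted p = 0.115).

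**Figure D5:**
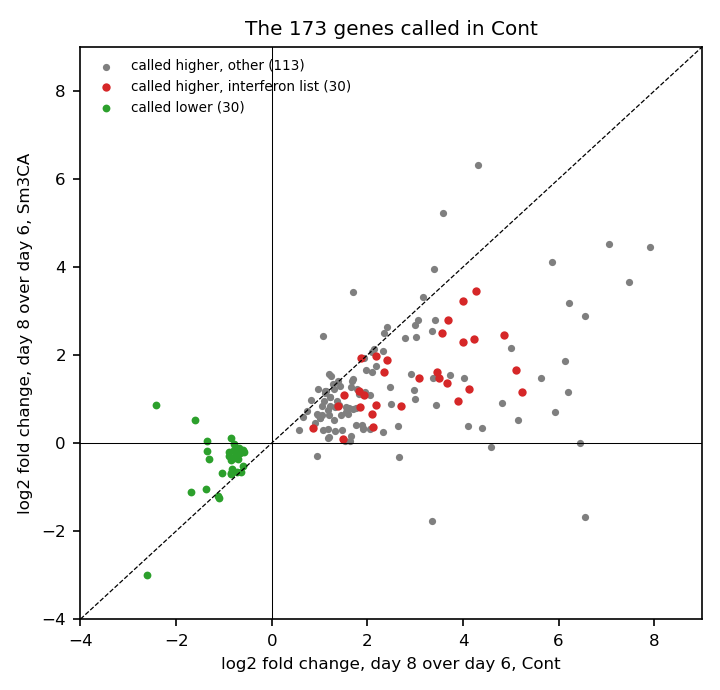
Log2 fold change from day 6 to day 8 in Cont (x axis) against that in +Sm3CA (y axis) for the 173 genes called in Cont, with interferon-stimulated genes in red, genes that fell in green and the dashed line marking equal changes. Most of the genes that rose lie below the line but above 0.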

How the data were processed

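Reads were counted per gene in each well of 5′-end (STRT) libraries, and the authors deposited these raw counts in a table of 18909 genes. The submitters' processing notes name Bowtie 0.12.9, DESeq2 1.6.3 and build mm10, with no role given. The study's methods used reads in place of molecule counts, which had lost genes of low abundance. The 84 wells were summed to 30 libraries by sample label. Counts were scaled to CPM by library totals with TMM factors, filtered with filterByExpr and tested with edgeR 4.0.16 (limma 3.58.1, R 4.3.3) in a fit of the 24 time series libraries as 8 groups, which then share a spread estimate, with Benjamini-Hochberg adjustment at 0.05. DESeq2 1.42.0 served as an alternative. Tables and plots used Python 3.11.15, pandas 2.3.3 and matplotlib 3.10.9. The fit was tested on simulated data first.

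ESC-high and MEF-high genes were those past the threshold with at least a 4-fold difference between ESC and MEF libraries. The text names the 12 largest rises and falls among called genes with non-overlapping libraries and at least 20 CPM in the higher group, up to 4 called members of each gene list or its member of smallest p, the cassette factors and Smad3, and genes with over 80% of their day 8 level in a single library. The comparison, the lists and the rule were chosen with earlier results of these data known, and any other gene given was named after its values were seen. A few genes that the rule names are not reported here. The floor of 3 reads is averaged over the day 6 libraries. Alternatives were other size factors and tools, no or a stricter filter, fewer libraries in the fit, a single well per library, other thresholds, each library or replicate number left out, and the replicate number as a block.

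The series design pairs replicate numbers over days within a series. Deviations of same-numbered libraries from their day means correlated at 0.0021, -0.091 and -0.065 over 10237 genes.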

Additional observations from a re-analysis of the deposited data

How the results depend on the processing

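The 173 calls of Cont became 265 with no filter, 106 with 1 well per library, 76 at an adjusted p below 0.01, 275 below 0.1, and 48 to 155 with a library or replicate number left out. The 143 higher genes became 215, 94 and 73 under the first 3 of these and 43 to 131 with libraries left out. The 30 lower genes became 50 with no filter, 18 with at least 50 reads, 49 with only the Cont libraries, 12 with 1 well, 3 and 70 at 0.01 and 0.1, and 3 to 24 with libraries left out. The 684 calls of +Sm3CA ranged from 163 to 1062 with a library left out. The 0 calls of the difference became 22 with DESeq2's Wald test, 49 with no filter and 0 to 58 with a library left out. The causes were not tested.

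The median of ESC-high genes was -0.05, 0.051 with 8-fold lists and -0.10 to -0.04 with libraries left out, and that of MEF-high genes was 0.16 and 0.11 to 0.18. Signs turned in genes that were not called: Acta1 ranged from -0.13 (without replicate 2) to 3.98 and Klf4 from -0.055 (without replicate 1) to 0.38 with libraries left out, and with 1 well Myc was at -0.13 and Klf4 at -0.083. With the replicate number as a block there were 168 calls, 137 higher and 31 lower, of which 156 were among the 173. The block changed no named call beyond Birc5, Cnn2, Gbp7, Kif5a, Ly6d and Pecr. Of 92 called genes examined singly, 36 kept their call without any single library, and 0 reversed. The uncalled Cd47, Mest, Prim1 and Ltbp2 passed under some alternative. Depth limits genes near 3 reads, where day 6 levels cannot be told from 0.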

Other observations

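Several genes outside the interferon list that rose were looked at after their values were seen. Mfge8, a secreted bridge for the uptake of dying cells, measured 20.5, 14.1 and 16.7 CPM on day 6 and 57.6, 63.0 and 48.9 CPM on day 8 (1.69 ± 0.23 on the log2 scale, edgeR adjusted p = 7.6e-06). Txnip, a thioredoxin-binding protein that rises with glucose, measured 6.99, 6.41 and 5.37 CPM and then 22.7, 19 and 23.1 CPM (1.77 ± 0.34, adjusted p = 0.00207). Both kept their call without any single library. Fth1, the ferritin heavy chain, which has near-identical copies in the genome that may share its reads, measured 317, 272 and 356 CPM and then 605, 572 and 666 CPM (0.96 ± 0.19, adjusted p = 0.00239).

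Antigen presentation showed a single list call. Of 11 tested MHC class I genes, H2-K1 rose from 14, 16 and 11.3 CPM to 41.7, 22.6 and 36.6 CPM (1.28 ± 0.28, adjusted p = 0.0062), with reads that other H2 genes may share, and its adjusted p was 0.0522 without day 6 replicate 1, 0.0598 without day 6 replicate 3 and 0.0532 without day 8 replicate 3. Psme1, a subunit of the proteasome activator induced by interferon gamma, measured 29.8, 17.3 and 22.1 CPM and then 37.1, 63.0 and 58.4 CPM (1.18 ± 0.24, adjusted p = 0.00384), and was at 0.0556 without day 6 replicate 2. Lbp, the lipopolysaccharide-binding protein of the acute phase, measured 4.66, 6.41 and 3.58 CPM and then 11.4, 23.3 and 36.6 CPM (2.33 ± 0.48, adjusted p = 0.00384), and was at 0.104 without day 8 replicate 3. Ifi47, an interferon-induced GTPase, had 1 read in all on day 6 and measured 10.6, 19 and 15.9 CPM on day 8. Slc1a2, the astrocyte glutamate transporter, was at 0 reads on day 6 and at 25.8, 9.90 and 5.96 CPM on day 8, with replicate 1 again the highest.

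A pair of enzymes of the dividing cell were among the genes that fell. Dtymk, thymidylate kinase, measured 107, 115 and 97.2 CPM and then 61.4, 54.5 and 61.2 CPM (-0.85 ± 0.20, adjusted p = 0.015). Melk, a mitotic kinase, measured 44.3, 41.0 and 41.1 CPM and then 25.8, 23.3 and 21.9 CPM (-0.85 ± 0.22, adjusted p = 0.0288). Their groups did not overlap, but without day 6 replicate 1 the adjusted p was 0.0698 and 0.151, and each also missed the threshold without 3 or more of the 6 libraries in turn. These lists gave 0 calls in either direction: 13 surface markers of reprogramming stages, 24 cyclin, CDK inhibitor and p53 axis genes, 22 cholesterol genes, 18 immediate early genes, 13 imprinted growth regulators, 7 DNA methylation genes, 6 trophoblast, 5 extraembryonic endoderm, 4 germline, 4 muscle and 2 endothelial markers.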
